A study of Homo sapiens with 8 samples.

Results

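The genes described here are 10 genes of the ATF4 and CHOP arm of the stress response: ATF4, DDIT3 (which encodes CHOP), TRIB3, CHAC1, ASNS, SESN2, DDIT4, FGF21, ATF5 and ATF3. They were chosen by name, and their Ensembl identifiers were matched to GENCODE symbols. All 10 were found among the 57500 genes of the count table, and all 10 were among the 19171 genes that passed the filter on low counts.

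The study asked how DZNep (3-deazaneplanocin A), an adenosine analog that inhibits S-adenosylhomocysteine hydrolase and thereby methylation, changes cells. RNAseq was measured in HEK293T cells, a human embryonic kidney line with the large T antigen of SV40. The DZNep group was exposed to 100 µM DZNep and the Control group to vehicle, each for 48 h and each in 4 libraries numbered replicates 1 to 4. Both groups thus shared 1 cell line, serum-supplemented medium and collection time, with the medium named as DMEM in the sample labels and as RPMI in the methods. The study calls them biological replicates, and the labels do not say whether they came from separate cultures, so p-values measure the spread between these libraries.

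When unfolded protein, a lack of amino acids, double-stranded RNA or a lack of heme activates one of the eIF2 kinases, phosphorylated eIF2 lowers general translation while the ATF4 mRNA is translated more. ATF4 then acts with C/EBP partners on genes of amino acid supply and redox balance, and it raises CHOP, which is tied to cell death when stress lasts. Since the response begins with translation, the ATF4 mRNA does not report the amount of ATF4 protein, which was not analysed here.

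The 8 libraries held between 25043058 and 44902779 counts. Mitochondrial transcripts took 7.76%, 3.02%, 3.16% and 13.7% of the counts in Control replicates 1 to 4, and 7.04%, 4.25%, 4.44% and 10.1% in DZNep replicates 1 to 4. All 4 HEK293T markers (LIN28B, PAX2, NEFL and NEFM) passed the filter, with a summed normalized count between 10952 and 14300 in Control and between 11290.4 and 13955 in DZNep. Of 10 markers of other cell types, 6 passed the filter, and their sum lay between 3375 and 6876 in Control and between 2978 and 6595 in DZNep. HBB was listed at 0 in every library, and CD3E was at 0 in Control and between 8.2 and 40.5 in DZNep. DZNep replicate 2 stood apart, with a normalized count of 450 for LYZ against 18.3 to 30.8 in the other libraries and of 15.3 for COL1A2 against 898 to 2167. Without that library, the log2 fold changes (DZNep over Control) of the 4 stress genes that passed the test were −2.46 for DDIT3, −1.67 for TRIB3, 1.13 for DDIT4 and 2.56 for FGF21, and all 4 still passed. Those of the other 6, which did not pass with or without it, were 0.07 for ATF4, −0.26 for ATF5, −0.28 for ATF3, −0.36 for ASNS, −0.30 for CHAC1 and 0.30 for SESN2. In bulk RNA, fewer cells of a kind and less RNA per cell cannot be told apart.

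The DNA letters that ATF4 and its C/EBP partners are known to bind, the C/EBP-ATF response element (CARE), have the core TTNCATCA, where N is any base. It was searched on both strands in the 1000 bases before the canonical GENCODE start of each gene on GRCh38. Of 20042 protein-coding genes, 11.4% held the core in that window, and 7 of the 10 stress genes did. The stricter form TTGCATCA, whose matches are also matches of the core, was in 2.13% of windows and in 5 of the 10. The sites are shown because they set genes that moved up, moved down and did not pass the test side by side with the same letters. Capitals mark the CARE core, each sequence runs 5′ to 3′ on the strand that reads the core, and distances run from the base of the core that lies farthest upstream to the start of transcription.
DDIT3, 306 bases before the start (chr12:57520803-57520830, minus strand): ttgccaaacaTTGCATCAtccccgcccc
FGF21, 54 bases before the start (chr19:48755460-48755487, plus strand): aacaccaggaTTGCATCAgggaggagga
DDIT4, 946 bases before the start (chr10:72272968-72272995, minus strand): atccagacggTTGCATCAggaccgagga
CHAC1, 209 bases before the start (chr15:40953252-40953279, plus strand): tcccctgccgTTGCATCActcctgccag
ATF3, 203 bases before the start (chr1:212608548-212608575, plus strand): ctccccgaacTTGCATCAccagtgcccc
ATF3, 21 bases before the start (chr1:212608730-212608757, minus strand): ttggagagcgTTGCATCAccccttttat
ASNS, 68 bases before the start (chr7:97872459-97872486, plus strand): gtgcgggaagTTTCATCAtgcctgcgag
ASNS, 886 bases before the start (chr7:97873277-97873304, plus strand): attttactaaTTACATCAgcaccgaaat
SESN2, 296 bases before the start (chr1:28259212-28259239, plus strand): tgaagtccctTTTCATCAcgcaacccta
The windows of ATF4, ATF5 and TRIB3 held no match, which says only that these letters are not in that window.

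The 10 genes went different ways with DZNep. DDIT3 and TRIB3 fell, FGF21 and DDIT4 rose, and the other 6 did not pass the test, ATF4 among them. The question was which stress genes differed between DZNep and Control by more than the libraries of a group differ, and it was answered with edgeR's quasi-likelihood test over all 19171 genes, with Benjamini-Hochberg adjustment. Genes are said to have risen or fallen where the adjusted p was under 0.05 and the log2 fold change was past 1 or −1. The 2 genes that rose and the 2 that fell compare with 10.6% of all genes tested that rose and 13.5% that fell. The same 4 genes had groups that did not overlap, 2 above and 2 below, which is near the 19.5% and 19.4% of all genes tested. These counts say which of the 10 genes changed and do not set the 10 apart from all genes. The median log2 fold change of the 10 genes was −0.39, and that of all genes tested was −0.03.

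Per length, the 10 mRNAs spanned a wide range of levels. On the scale of CPM per kilobase of GENCODE exons, the mean levels in Control were 373 for ATF4, 185 for ASNS, 132 for DDIT4, 54.1 for SESN2, 38.8 for CHAC1, 32.2 for ATF3, 22.2 for DDIT3, 20.2 for TRIB3, 12.6 for ATF5 and 1.30 for FGF21. In that order, the ranges of neighbours overlapped except between ATF4 and ASNS, DDIT4 and SESN2, and ATF5 and FGF21. In DZNep the order of mean levels became ATF4 at 389, DDIT4 at 289, ASNS at 131, SESN2 at 70.2, CHAC1 at 29.2, ATF3 at 25.7, ATF5 at 9.98, FGF21 at 6.55, TRIB3 at 6.21 and DDIT3 at 3.82. In this order, neighbours overlapped except between DDIT4 and ASNS, SESN2 and CHAC1, ATF3 and ATF5, and TRIB3 and DDIT3. DDIT3 had the lowest mean level in DZNep, with a range of 2.68 to 4.63 that lay under that of TRIB3 (5.30 to 6.95) and overlapped that of FGF21 (3.18 to 8.28).

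**Figure D1:**
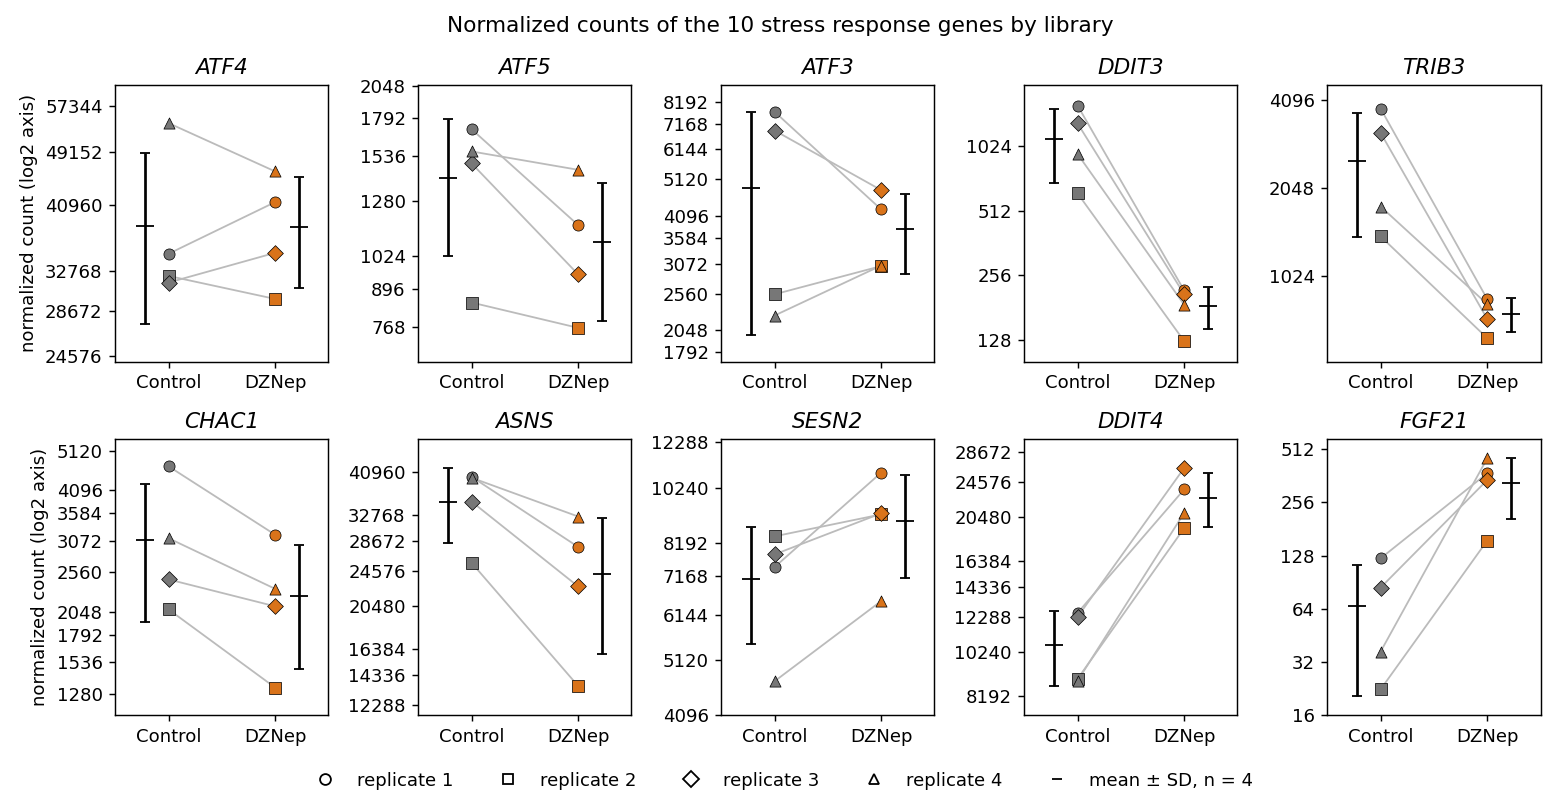
Normalized counts (vertical axis, log2 scale, a separate range for each gene) of the 10 stress response genes in the 4 Control and 4 DZNep libraries, with marker shapes for the replicate number, lines that join equal numbers and bars for the mean ± SD (n = 4). DDIT3 and TRIB3 lie lower and DDIT4 and FGF21 higher in every DZNep library than in every Control library, and the groups of the other 6 genes overlap.

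The mRNAs of the ATF factors ATF4, ATF5 and ATF3 did not pass the test. ATF4 (ENSG00000128272, chromosome 22, 39519695 to 39522683, plus strand), the factor at the head of the response, had normalized counts of 34777, 32265, 31546 and 54130 in Control replicates 1 to 4 and of 41425, 29845, 34890 and 45962 in DZNep replicates 1 to 4. The groups overlapped, and replicate 4 was the highest library of each. DZNep over Control, the log2 fold change was −0.03 (SE 0.23, adjusted p = 0.92), with means of 38179.5 ± 10723 and 38030.3 ± 7101 (SD, n = 4). The direction is not defined, since the log2 fold change became 0.18 without Control replicate 4.

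ATF5 (ENSG00000169136, chromosome 19, 49928702 to 49933935, plus strand), a factor of the same family that is likewise controlled at translation, had normalized counts of 1716, 848, 1493 and 1567 in Control and of 1162, 765, 951 and 1455 in DZNep. Replicate 2 was the lowest of each group, and each DZNep library lay below the Control library of its number. In edgeR the log2 fold change was −0.40 (SE 0.25, adjusted p = 0.231), and a fit that blocks on the replicate number gave an adjusted p of 0.0151.

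ATF3 (ENSG00000162772, chromosome 1, 212565334 to 212620777, plus strand), an early response factor that ATF4 and other pathways raise, had normalized counts of 7719, 2548, 6889 and 2240.0 in Control and of 4266, 3024, 4797 and 3034 in DZNep. Control split into a high pair, replicates 1 and 3, and a low pair, replicates 2 and 4, and the DZNep libraries lay between these pairs. Its log2 fold change was −0.38 (SE 0.39, adjusted p = 0.466), and within replicate numbers the log2 ratio was −0.86 and −0.52 in replicates 1 and 3 but 0.25 and 0.44 in replicates 2 and 4.

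Among the 10 genes, the largest decreases were in CHOP itself and in a gene that CHOP and ATF4 jointly raise. DDIT3 (ENSG00000175197, chromosome 12, 57516588 to 57521737, minus strand) had normalized counts of 1583, 617, 1307 and 941 in Control and of 218, 126, 209 and 187 in DZNep. The highest DZNep library lay well under the lowest Control library, and replicate 2 was the lowest of both groups. The means were 1112 ± 422 and 185 ± 41.1 (SD, n = 4), and the log2 fold change was −2.61 (SE 0.30, adjusted p = 0.00013). Over 21 other settings, thresholds and sets of libraries it lay between −2.82 and −2.41.

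TRIB3 (ENSG00000101255, chromosome 20, 362835 to 397559, plus strand) encodes a pseudokinase that binds ATF4 and restrains it. Its normalized counts were 3817, 1401, 3155 and 1771 in Control and 857, 631, 733 and 823 in DZNep. The groups did not overlap, and the spread of Control was far wider than that of DZNep, with means of 2536 ± 1140.0 and 761 ± 101. The log2 fold change was −1.76 (SE 0.30, adjusted p = 0.00113). Within replicate numbers the decrease was larger in replicates 1 and 3 (log2 ratios of −2.15 and −2.11) than in replicates 2 and 4 (−1.15 and −1.10). Replicates 1 and 3 were the higher Control libraries for TRIB3, as they were for ATF3 and DDIT3 and for the genes that rose, DDIT4 and FGF21.

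The 2 genes of amino acid and glutathione metabolism were lower in each DZNep library than in the Control library of the same number, but their groups overlapped. ASNS (ENSG00000070669, chromosome 7, 97851677 to 97872542, minus strand), which makes asparagine, had normalized counts of 39989, 25638, 35171 and 39777 in Control and of 27824, 13563, 22683 and 32560 in DZNep. Its log2 fold change of −0.57 (SE 0.27) did not pass the test (adjusted p = 0.118), while the block by replicate number gave −0.62 with an adjusted p of 0.000602.

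CHAC1 (ENSG00000128965, chromosome 15, 40952962 to 40956512, plus strand) encodes an enzyme that breaks down glutathione. Its normalized counts were 4690, 2074, 2461 and 3112 in Control and 3175, 1328, 2111 and 2332 in DZNep. Replicate 1 was the highest and replicate 2 the lowest of both groups. A log2 fold change of −0.49 (SE 0.30) did not pass the test (adjusted p = 0.225), while the block gave −0.49 with an adjusted p of 0.00198.

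The 2 stress genes that restrain mTORC1, the kinase complex that drives growth, lay higher in each DZNep library than in the Control library of the same number. DDIT4 (ENSG00000168209, chromosome 10, 72273919 to 72276036, plus strand), also called REDD1, acts on mTORC1 through TSC1 and TSC2. Its normalized counts were 12544, 8939, 12290.2 and 8853 in Control and 23656, 19388, 26404 and 20968 in DZNep. Every DZNep library was higher than every Control library, with means of 10656.5 ± 2036 and 22604 ± 3086 (SD, n = 4). The log2 fold change was 1.06 (SE 0.19, adjusted p = 0.00134). It passed the fold threshold narrowly, and fell under it without Control replicate 2 (0.98), Control replicate 4 (0.97) or DZNep replicate 3 (0.98). Tested against a log2 fold change of 1 rather than against 0, DDIT4 had an adjusted p of 0.723.

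SESN2 (ENSG00000130766, chromosome 1, 28259518 to 28282491, plus strand), a leucine-sensing sestrin, had normalized counts of 7439.8, 8421, 7831 and 4698 in Control and of 10883, 9198, 9238 and 6489 in DZNep. Replicate 4 was the lowest of both groups and made them overlap. The log2 fold change of 0.31 (SE 0.22) did not pass the test (adjusted p = 0.288), and the block gave 0.32 with an adjusted p of 0.03.

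FGF21 (ENSG00000105550, chromosome 19, 48755524 to 48758333, plus strand), a hormone secreted by stressed cells, had the lowest counts of the 10 genes in Control and the largest increase. Its normalized counts were 123, 22.3, 84.2 and 36.5 in Control, from 80, 25, 94 and 34 reads, and 375, 155, 343 and 454 in DZNep, from 413, 193, 397 and 404 reads. The groups did not overlap, and replicate 2 was the lowest of both. The means were 66.6 ± 46.2 and 332 ± 127 (SD, n = 4), and the log2 fold change was 2.31 (SE 0.51, adjusted p = 0.00474). Within replicate numbers the ratio ran from 3.04-fold in replicate 1 to 12.4-fold in replicate 4.

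Within replicate numbers, most of the genes moved one way. Of the 10 genes, 5 (DDIT3, TRIB3, ASNS, CHAC1 and ATF5) were lower and 3 (FGF21, DDIT4 and SESN2) were higher in DZNep in all 4 pairs, while ATF4 and ATF3 were mixed. In DDIT3, TRIB3 and FGF21 the ratio passed 2-fold in all 4 pairs. How many of all genes moved one way, or passed 2-fold, in all 4 pairs was not computed, so these counts are a description. With the replicate number as a block, those 8 genes had an adjusted p under 0.05, 3 higher and 5 lower, against 28.8% and 30.2% of all genes tested at that threshold. Changes in ASNS, CHAC1, ATF5 and SESN2 remained under 1 in size on the log2 scale, so that the genes past both thresholds were the same 4, against 11.7% of all genes higher and 14.3% lower in that fit.

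The stress genes also varied with the replicate number. A term for the number passed (adjusted p under 0.05, edgeR's quasi-likelihood F test) in 9 of the 10 genes, against 29.0% of all genes tested, and DDIT4 was the exception (adjusted p = 0.0698). Replicate 2 was the lowest Control library for 6 of the genes and the lowest DZNep library for 9, and for 6 it was the lowest of both groups, against 32.1%, 28.7% and 15.5% of all genes tested. The lowest adjusted p was that of CHAC1 (0.000641), and that of DDIT3 was 0.00328.

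The effect of the number had a different shape in different genes. On the log2 scale and averaged over both groups, FGF21 lay 0.74 above its mean in replicate 1 and 1.13 (−1.13) below it in replicate 2. ATF4 stood out in replicate 4, with 0.42 above its mean, and SESN2 in the same replicate with −0.50. ATF3 was at 0.55 in both replicates 1 and 3 and at −0.50 and −0.59 in replicates 2 and 4. The mitochondrial share was highest in replicate 4 of both groups, and its part in these differences was not tested.

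Leaving out 1 replicate number at a time gave other shares. With both libraries numbered 4 left out, the share of all genes that passed it fell to 1.36%, while 4 of the stress genes (DDIT3, CHAC1, FGF21 and ATF3) still passed. With both libraries numbered 2 left out, 29.7% of all genes and 5 of the stress genes (ATF4, TRIB3, CHAC1, SESN2 and ATF3) passed. All 10 passed without number 1 and 9 without number 3, against 33.6% and 25.4% of all genes. These shares are given as a description.

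**Figure D2:**
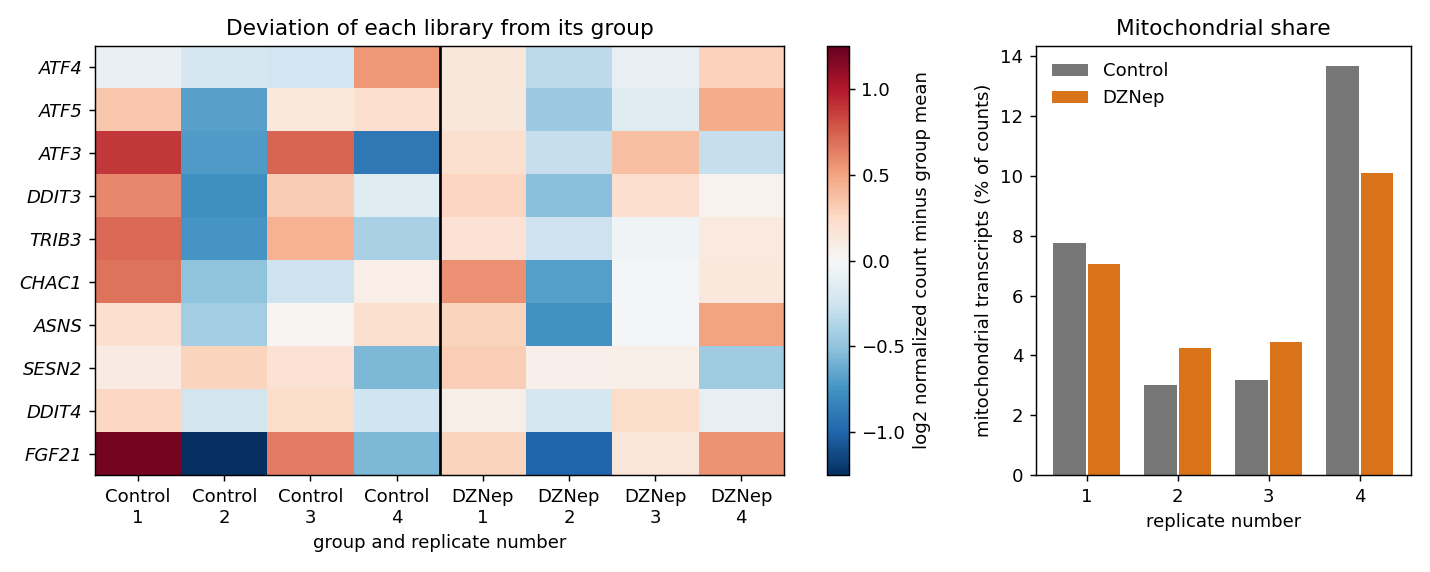
Left, deviation of the log2 normalized count of each stress gene from its group mean (color scale) in the 8 libraries, ordered by group and replicate number. Right, share of counts in mitochondrial transcripts (percent, bars from 0) for the same libraries, from 3.02% in Control replicate 2 to 13.7% in Control replicate 4.

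Spread was wider in Control than in DZNep for most of the genes. The ratio of the highest to the lowest Control library ran from 1.42 for DDIT4 to 5.53 for FGF21, and that of the DZNep libraries from 1.36 for TRIB3 and DDIT4 to 2.92 for FGF21. The SD of log2 normalized counts was larger in Control for 8 of the 10 genes and for 69.5% of all genes tested, so this holds of the table as a whole. CHAC1 (0.51 in Control and 0.52 in DZNep) and ASNS (0.30 and 0.55) were the exceptions.

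Deviations from the group means were shared by some of the genes across the 8 libraries. These correlations describe 8 points that share replicate numbers, depth and normalization. DDIT3 and FGF21, which moved in opposite directions with DZNep, had a Pearson r of 0.95 within groups, and DDIT3 and TRIB3 of 0.92. DDIT4 and ATF3 had an r of 0.95, and ASNS and ATF5 of 0.91. ATF4 itself had an r of 0.15 with DDIT3, −0.08 with TRIB3 and −0.76 with SESN2, and its highest was 0.71 with ASNS. Of 10695 other genes with a symbol and an average log2 CPM of at least 3, those whose deviations were most like those of the 10 genes were BTG1 (median r of 0.85), FANCL (0.85), PMM1 (0.84), KRCC1 (0.84) and PHYH (0.84). They were picked as the highest medians, so the size of these values is partly due to that choice. Their r ran only from 0.33 to 0.48 with ATF4 and from −0.27 to 0.005 with SESN2. KRCC1 also fell with DZNep, from a mean normalized count of 920 ± 394 to 128 ± 39.0 (SD, n = 4, log2 fold change −2.88, adjusted p = 0.000153), whereas BTG1 had a log2 fold change of 0.47 (adjusted p = 0.125).

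Upstream of ATF4, the mRNAs of the 4 eIF2 kinases did not pass both thresholds. EIF2AK4, which encodes the amino acid sensor GCN2, had a mean normalized count of 3302 ± 336 in Control and 2194 ± 279 in DZNep without overlap, a log2 fold change of −0.62 (adjusted p = 0.00756). EIF2AK1 (HRI) had a log2 fold change of −0.04, EIF2AK2 (PKR) of −0.28 and EIF2AK3 (PERK) of −0.05, with adjusted p of 0.827, 0.234 and 0.913. Of 24 genes of the eIF2 kinases, phosphatases, exchange factor and their partners, 1 rose (4.17%) and 1 fell (4.17%), against 10.6% and 13.5% of all genes tested, with a median log2 fold change of 0.04 against −0.03. EIF2B2, a subunit of the exchange factor eIF2B that recharges eIF2, rose from 1847 ± 302 to 4118 ± 353 (log2 fold change 1.13, SE 0.16, adjusted p = 0.000358). OMA1, the mitochondrial protease that signals to HRI through DELE1, fell from 898 ± 36.5 to 343 ± 58.3 (log2 fold change −1.42, SE 0.16, adjusted p = 0.000104).

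Among other known ATF4 target genes, 7 fell and 0 rose at both thresholds. Of 40 on the list 39 were tested, so that 17.9% fell against 13.5% of all genes tested and 0 rose against 10.6%, with a median log2 fold change of −0.55 against −0.03. At an adjusted p under 0.05 alone 20 were lower and 1 was higher, against 21.8% and 19.1% of all genes tested, and with the block by replicate number 23 were lower and 2 higher, against 30.2% and 28.8%. DESeq2 and limma also gave 7 that fell and 0 that rose, and at an unadjusted p under 0.05 edgeR had 22 lower and 2 higher, against 26.0% and 22.9% of all genes tested. ALDH1L2, a mitochondrial folate enzyme, had the largest decrease, from 4493 ± 1894 to 639 ± 209 (log2 fold change −2.84, adjusted p = 0.000156). PCK2, mitochondrial phosphoenolpyruvate carboxykinase, fell from 8721 ± 767 to 1276 ± 353 (log2 fold change −2.80, adjusted p = 1.9e-05). SLC1A4, a neutral amino acid transporter, fell from 1972 ± 615 to 424 ± 94.1 (log2 fold change −2.24, adjusted p = 0.000133).

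Several much cited targets of ATF4 were named whatever their values. PSAT1 of serine synthesis had a log2 fold change of −0.59 (adjusted p = 0.0322) and the cystine transporter SLC7A11 of −0.51 (adjusted p = 0.0316), both under the fold threshold. PHGDH, the first enzyme of serine synthesis, had −0.25 (adjusted p = 0.38), and CEBPG, a C/EBP partner of ATF4, had −0.26 (adjusted p = 0.354). GDF15, a secreted stress marker, had a wide spread, with 112 ± 107 in Control and 50.0 ± 16.0 in DZNep (log2 fold change −1.18, adjusted p = 0.184), and its size turned on single libraries, with −0.43 without Control replicate 1 and −1.55, past both thresholds, without Control replicate 2. It was −0.57 with limma and −0.76 with the block, without passing the test.

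Of 14 genes linked to CHOP as partners or targets 13 were tested, and 2 fell (15.4%) and 0 rose, against 13.5% and 10.6% of all genes tested, with a median log2 fold change of −0.43 against −0.03. DESeq2 and limma gave the same numbers, and at an unadjusted p under 0.05 edgeR had 6 lower and 1 higher, against 26.0% and 22.9% of all genes. CEBPD, a C/EBP partner, fell from 214 ± 89.2 to 60.0 ± 31.6 (log2 fold change −1.87, adjusted p = 0.00916). Without both libraries numbered 1 (−1.72) the call of CEBPD was lost. CEBPB, another partner that is also on the list of ATF4 targets, fell from 3979 ± 1647 to 1792 ± 805 (log2 fold change −1.18, adjusted p = 0.0304), although its groups overlapped. The call of CEBPB was lost without Control replicate 1 (−0.93), Control replicate 4 (−1.12), or DZNep replicate 1 (−1.19), 2 (−0.93) or 3 (−1.14). PPP1R15A (GADD34), which returns eIF2 to its unphosphorylated state, had 2811 ± 1387 in Control and 1837 ± 285 in DZNep and did not pass the test (log2 fold change −0.64, adjusted p = 0.135).

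In the other arms of the unfolded protein response no gene passed both thresholds, and the early response genes that passed them rose. Of 28 chaperone and degradation genes of the ATF6 and XBP1 arms, 0 passed both thresholds, against 10.6% of all genes tested that rose and 13.5% that fell, and the median log2 fold change was 0.15 against −0.03. At an adjusted p under 0.05 alone 4 were higher and 4 lower, against 19.1% and 21.8% of all genes, and with the block by replicate number 11 were higher and 7 lower, against 28.8% and 30.2%. Passing both thresholds was likewise limited to 0 of them with DESeq2 and limma, and at an unadjusted p under 0.05 edgeR had 6 higher and 4 lower, against 22.9% and 26.0%. HSPA5 (BiP), the chaperone that senses unfolded protein, had 19984 ± 3189 in Control and 26279.8 ± 2121 in DZNep, a log2 fold change of 0.37 that did not pass the test (adjusted p = 0.1). Of 20 AP-1 and early response genes, the family to which ATF3 is usually assigned, 4 rose and 0 fell with edgeR, DESeq2 and limma alike, against 10.6% and 13.5% of all genes in edgeR, with a median log2 fold change of 0.53 against −0.03. Without adjustment (p under 0.05 in edgeR) 9 were higher and 0 lower, against 22.9% and 26.0%. DUSP1, a phosphatase of MAP kinases, rose from 1420.3 ± 95.1 to 4289 ± 1309 (log2 fold change 1.57, adjusted p = 0.000366). EGR3 (log2 fold change 1.47, adjusted p = 0.0104) and FOSB (log2 fold change 1.46, adjusted p = 0.00618) also rose, from mean normalized counts of 10.2 and 59.8.

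**Figure D3:**
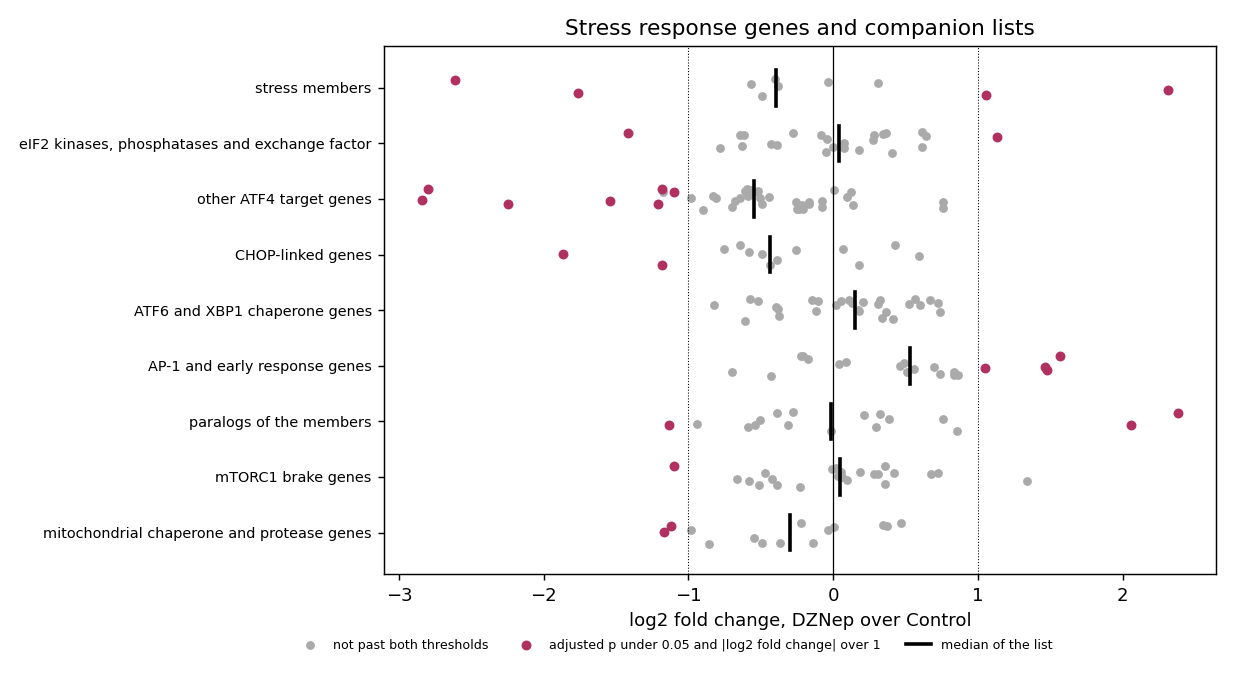
Log2 fold change, DZNep over Control (horizontal axis), of every tested gene of the stress genes and of 8 companion lists, with genes past both thresholds in red and the median of each list as a black line. The 39 other ATF4 target genes have a median of −0.55 with 7 genes past the threshold on the lower side, and the 28 ATF6 and XBP1 chaperone genes have 0 past it.

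In 2 lists close to the functions of single stress genes, 1 of 24 mTORC1 genes and 2 of 14 mitochondrial genes passed both thresholds. Of 24 genes linked to the control of mTORC1, 0 rose and 1 fell (4.17%), against 10.6% and 13.5% of all genes tested. Not all of them restrain mTORC1 as DDIT4 and SESN2 do. Their median log2 fold change was 0.05 against −0.03. DESeq2 and limma each had 1 that rose and 1 that fell, and at an unadjusted p under 0.05 edgeR had 4 higher and 6 lower, against 22.9% and 26.0%. The gene that fell was EIF4EBP1, a translation repressor and ATF4 target, with 20675 ± 8887 in Control and 9854 ± 4354 in DZNep (log2 fold change −1.10, adjusted p = 0.041), and its groups overlapped. Its log2 fold change was under 1 in size without Control replicate 1 (−0.96), Control replicate 4 (−0.88), DZNep replicate 2 (−0.89) or DZNep replicate 3 (−0.99), and without DZNep replicate 1 (−1.12) the adjusted p missed the threshold. ATF5 is known to regulate some mitochondrial chaperone and protease genes, and not all on the list are known targets. Of 14 listed, 0 rose and 2 fell (14.3%) with edgeR, DESeq2 and limma, against 10.6% and 13.5% of all genes in edgeR. The median log2 fold change was −0.30 against −0.03. Without adjustment (p under 0.05 in edgeR) 1 was higher and 6 lower, against 22.9% and 26.0%. The 2 that fell were DNAJA3, from 3697 ± 866 to 1679 ± 86.3 (log2 fold change −1.17, adjusted p = 0.000621), and AFG3L2, from 2792 ± 979 to 1305 ± 164 (log2 fold change −1.12, adjusted p = 0.00425). The log2 fold change of AFG3L2 was −0.92 without Control replicate 2.

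Paralogs of the stress genes had their own values. Of 18 listed 17 were tested, and 2 rose (11.8%) and 1 fell (5.88%), against 10.6% and 13.5% of all genes tested, with a median log2 fold change of −0.02 against −0.03. DDIT4L (REDD2), the paralog of DDIT4, rose with it, from 90.5 ± 18.5 to 385 ± 84.4 (log2 fold change 2.06, SE 0.23, adjusted p = 0.000105). FGF23, a hormone of the same subfamily as FGF21, rose from 9.69 ± 4.58 to 51.7 ± 21.3 (log2 fold change 2.38, SE 0.45, adjusted p = 0.00195), while FGF19, the remaining member, had 24.7 ± 4.72 and 12.8 ± 5.06 (log2 fold change −0.94, adjusted p = 0.0573). BATF3, a relative of ATF3, fell from 365 ± 102 to 169 ± 43.1 (log2 fold change −1.14, adjusted p = 0.00469). Its log2 fold change was −0.98, under the fold threshold, without both libraries numbered 1. TRIB1 and TRIB2 had log2 fold changes of −0.28 and −0.54 (adjusted p = 0.199 and 0.0256), against −1.76 for TRIB3. SESN1 and SESN3 had −0.31 and 0.76 (adjusted p = 0.219 and 0.086), against 0.31 for SESN2, and CHAC2 had −0.51 (adjusted p = 0.0201) against −0.49 for CHAC1. Among the other ATF and CREB family members, JDP2 had −0.59 (adjusted p = 0.0268) and BATF2 0.85 (adjusted p = 0.0366), and ATF1, ATF2, ATF6, ATF6B, ATF7 and CREB1 lay between −0.39 and 0.38 without passing the test.

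The counting could blur some of these genes, since whether strand was used is not given in the sources used here. In the GENCODE annotation of GRCh38, 355 of the 1307 exon bases of DDIT3 overlap exons of MARS1 on the other strand, 565 of the 2892 exon bases of ATF5 overlap those of NUP62, and 2415 of the 4896 exon bases of ASNS overlap a lncRNA, ENSG00000284707, on the same strand. Reads there may have been left out or given to either gene. The processed copies of ATF4 took few reads, with 10 to 26 on ATF4P3 and 3 to 12 on ATF4P4 in a library, and ASNSP1 took 135 to 1092.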

How the data were processed

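RNAseq was measured in 8 HEK293T libraries, grouped by the treatment and replicate number in their titles. The authors used Trimmomatic 0.36 on the paired 150 bp reads, STAR 2.5.2b to map them on GRCh38 and featureCounts (Subread 1.5.2) to count those unique to the exons of a gene. The annotation release, library type and strandedness are not given in the sources used here. The authors deposited a table of raw counts for 57500 genes. They also deposited normalized counts, a signal for 19118 genes. On checking, these were all genes whose counts summed to over 80, and 1 size factor for each library turned the first table into the second. The normalized counts printed are the counts divided by those factors. Columns of per-sample values left unused numbered 0. Symbols and coordinates came from GENCODE release 44 on GRCh38, matched for 56410 genes.

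Counts were tested with edgeR 4.0.16 in R 4.3.3, by the quasi-likelihood test after TMM normalization. It ran on 19171 genes left by filterByExpr, and p-values were adjusted by Benjamini-Hochberg over all of them. The SE printed was derived from that test, as the absolute log2 fold change over the square root of its F statistic. The study used DESeq2 with the same thresholds, and DESeq2 1.42.0 was run as an alternative, beside limma 3.58.1 on log2(normalized count + 1), other scalings and filters, edgeR's glmTreat with a log2 fold change of 1 as its null, the replicate block and leaving out each library or each replicate number. The share of all genes passing the replicate number term with a number left out was added after seeing the data. Scripts were tested on simulated data.

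The labels give numbers and do not state that equal numbers are pairs. Libraries of equal number deviated from their groups together, though weakly in replicate 1 (r of 0.136, 0.492, 0.429 and 0.673 for replicates 1 to 4). On this ground, taken from these same data, equal numbers were treated as pairs, and the block is the paired fit only under that reading. No libraries of a group agreed within sampling noise (chi-square over its degrees of freedom was 16.1 or more), and each was counted as 1 replicate. This check cannot tell whether the libraries came from separate cultures. For a gene at 0 in the shallowest library, the limit is 1.2e-05% of counts (3 counts), counting error only. A difference between 4 and 4 libraries cannot go below p = 0.0286 in a two-sided exact permutation test, so single genes were judged by the fit over all genes.

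The 10 stress genes and the 8 companion lists (172 genes) were chosen with earlier results of these data known. Genes named are the 10, up to 3 called genes of each list by size of change, 12 further pathway genes whatever their values, tested paralogs, and the 5 genes most like the 10 in their deviations. Counts and medians of a list stand beside those of all genes, and no set test was run. The levels per kilobase used library totals and the union of GENCODE exons. Motif windows began at each canonical transcript's start.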

Additional observations from a re-analysis of the deposited data

Results flagged for a closer look

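In 4 of 102 groups of 4 libraries, over 51 genes named here, the highest or lowest library stood apart from the others by Dixon's criterion on the gap to the nearest library against the range of the group. Chance alone gives about 1 in 20 such groups. ATF4 had a normalized count of 54129.9 in Control replicate 4, against 31546 to 34777 in the other Control libraries, and in DZNep replicate 4 was likewise the highest at 45962. The mitochondrial share was 13.7% in Control replicate 4, the highest of the 8 libraries, and its part in the value was not tested. SLC7A11 had 3285 in Control replicate 4, under 4249 to 4435 in the others. In DZNep replicate 3, EIF2B2 had 3589.5 and CHAC2 had 505, both the lowest of their group, against at least 4263 and 606.5 in the other DZNep libraries.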

How the results depend on the processing

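Over 21 alternatives, the log2 fold changes of DDIT3 (−2.82 to −2.41), TRIB3 (−1.97 to −1.51) and FGF21 (1.94 to 2.75) kept their direction and stayed past both thresholds. Among these, the test against a log2 fold change of 1 and the adjusted p alone reuse the main fold change. They bear on the thresholds only. That of DDIT4 lay between 0.97 and 1.13. Of the 10 stress genes, the number that rose was 1 rather than 2 when tested against a log2 fold change of 1, and between 1 and 2 when a library was left out, because DDIT4 fell under the threshold. The number that fell was 2 throughout. The share of all genes past both thresholds was computed only for edgeR's test without and with the block. With the replicate number as a block, which treats equal numbers as pairs, the numbers were 2 and 2. Of the 172 genes of the companion lists, 9 rose and 12 fell with the block, and 7 and 12 without it. Of all genes tested, 11.7% rose and 14.3% fell with the block, and 10.6% and 13.5% without it. In those lists, the test against a log2 fold change of 1 left 3 higher and 5 lower, and the share of all genes was not computed there. An adjusted p under 0.05 alone gave 20 higher and 43 lower, against 19.1% and 21.8% of all genes tested.

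The log2 fold change of ATF4 (−0.03) was 0.00032 with DESeq2, 0.012 with limma, 0.061 with library sizes alone and 0.0022 with genes of at least 1 count, and between −0.13 and 0.18 when libraries were left out. With library sizes alone, that of EIF2AK1 was 0.044 and that of EIF2AK3 0.015, and leaving out libraries gave −0.095 to 0.035 and −0.23 to 0.14. The causes were not tested. The replicate number term passed in 4 to 10 of the stress genes when a number was left out.

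Of the 10 stress genes, FGF21 had the fewest reads in Control, 25 to 94 in a library. FGF23 and EGR3 were lower still (mean normalized counts of 9.69 and 10.2 in Control) and gave no value with at least 10 counts in every library. Direction was not defined for ATF4, EIF2AK1 and EIF2AK3. The lists were written from general knowledge, they overlap, and their targets were not defined in HEK293T cells.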
